A study of Homo sapiens with 6 samples.

Results

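Integrins and laminins were followed in HCT116 cells, an established human colon cancer line, through 41 genes of the 11963 that an expression array could test. A gene was taken when its symbol starts with ITGA, ITGB, LAMA, LAMB or LAMC and a number, or when it is ITGAE, ITGAV, ITGAL, ITGAM, ITGAX, ILK, PTK2, TNS1, PARVA or FERMT2. Each gene was read by its brightest probe set, the one with the highest mean log2 signal over all 6 arrays, among probe sets annotated to that gene alone. The set holds 10 laminin chains, 23 integrin subunits, 5 cytoplasmic adhesion proteins and 3 binding proteins (ITGB1BP1, ITGB1BP2 and ITGB3BP) whose symbols meet the rule although they are not integrins.

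The cells stably carried a hairpin RNA (shRNA) delivered by the lentiviral vector FUGW. In 3 arrays the hairpin was directed against NFX1-91, a splice form of the zinc finger repressor NFX1, and in 3 control arrays against β-galactosidase, a bacterial enzyme. All 6 arrays therefore came from HCT116 cells with a lentiviral hairpin, and the labels name no clone. NFX1 itself had 3 probe sets on the array, and the sources used here do not give the splice forms that each detects. The brightest read 124, 139 and 138 in NFX1-91 shRNA arrays, against 159, 144 and 139 in control arrays and did not pass (log2 fold change -0.13, SE 0.0953, adjusted p = 0.362), the middle one did not pass either (in a fit over all single-gene probe sets, adjusted p = 0.77), and in that fit the dimmest, at 8.87, 8.83 and 4.56 in NFX1-91 shRNA arrays, against 16.8, 17.7 and 24.4 in control arrays, was lower (log2 fold change -0.60, adjusted p = 0.0128). The labels do not tell separate cultures from repeat arrays of 1 culture, so a p-value here covers array-to-array spread that may be technical only, and 3 arrays a group limit the precision.

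Laminins are basement membrane proteins, each assembled from an α, a β and a γ chain. Integrins are membrane receptors made of an α and a β subunit, which bind laminins, collagens, fibronectin or other cells on the outside and recruit adaptor proteins on the inside. In the intestinal epithelium they hold cells to the basement membrane, and ITGA6 with ITGB4 forms the receptor of hemidesmosomes. Signals below are on a linear scale on which the mean of each array is 500. Log2 fold changes are NFX1-91 shRNA over control on log2(signal + 16), a scale that understates the change of dim genes, and adjusted p-values come from limma with Benjamini-Hochberg adjustment over all 11963 genes.

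Most members with a clear signal were higher in the cells with the NFX1-91 hairpin. At an adjusted p under 0.05, 18 of 41 members (43.9%) were higher and 3 (7.32%) lower, whereas 14.7% of all genes were higher and 17.8% lower. A change of at least 1.5-fold was reached by 3 members as higher and 1 as lower (7.32% and 2.44%), and by 3.04% and 5.77% of all genes. The laminin receptor subunit ITGA6, the laminin chain LAMA2 and the kinase-like adaptor ILK had the largest rises on the probe sets used, and the kindlin FERMT2, an activator of integrins, the largest fall. This order turns with the choice of probe set. With the brightest one picked by linear means, the laminin chain LAMC1 came first at a log2 fold change of 1.46, against 1.16 for ITGA6. LAMC1 then also passed 1.5-fold, at 2.74-fold (limma adjusted p = 7.1e-06), which it just missed at 1.48-fold on the probe set used. The median log2 fold change was 0.20 over the members and 0.00 over all genes. The 3 arrays of the groups did not overlap for 18 members above and 3 below, or 43.9% and 7.32%, where 20.6% and 22.9% of all genes did so. RNA was taken from whole cultures, so more cells expressing a gene and more RNA per cell cannot be told apart.

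**Figure D1:**
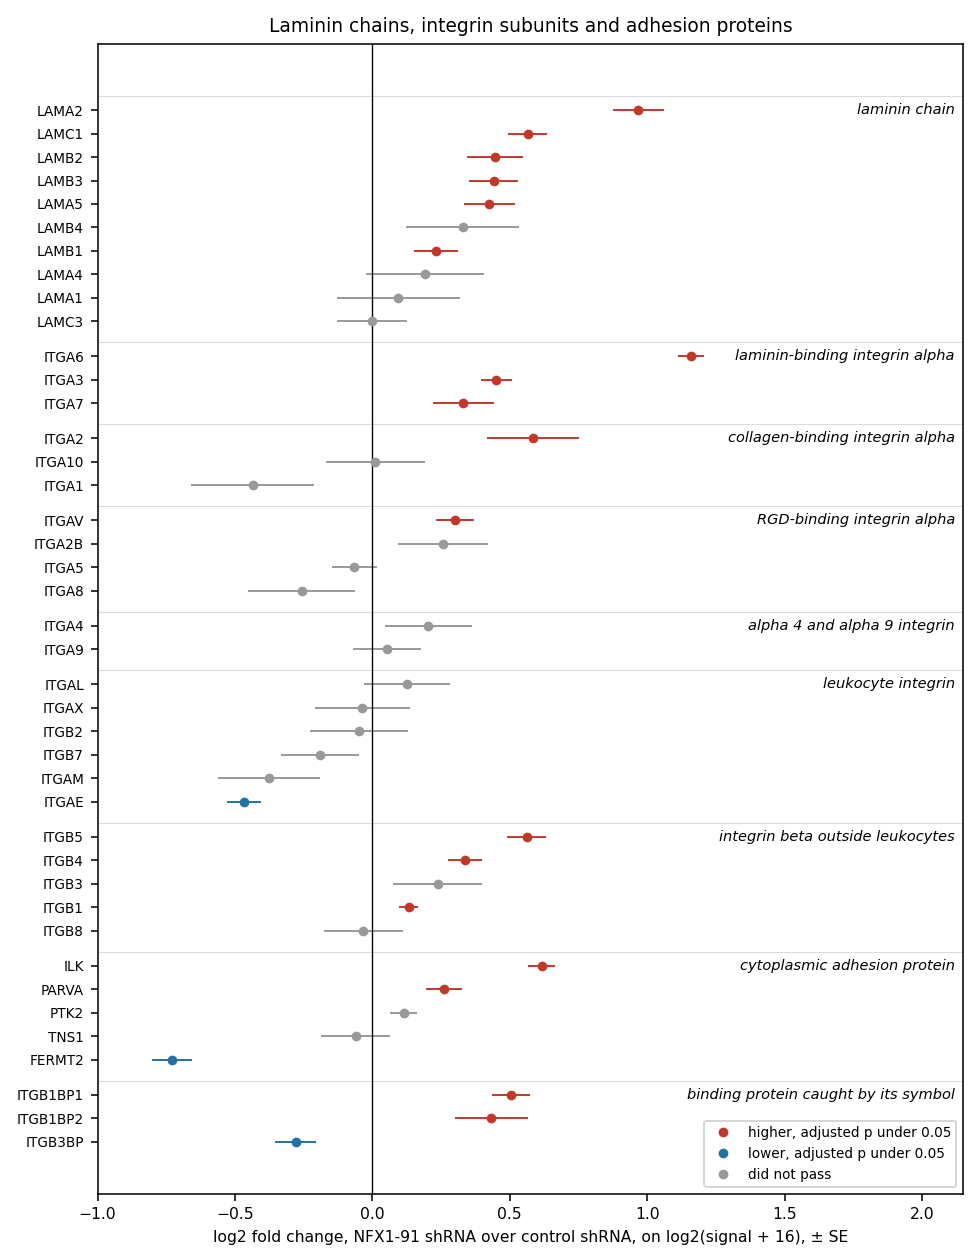
Log2 fold change of each of the 41 members, NFX1-91 shRNA over control shRNA, with bars of 1 SE from limma (3 arrays a group), in blocks by role. Red points passed as higher (18), blue points as lower (3) and grey points did not pass (20). ITGA6 at 1.16 lies farthest to the right and FERMT2 at -0.73 farthest to the left.

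Dim genes were seldom called: 3.59% of the genes under the 40th percentile of mean log2 signal were higher and 3.74% lower, compared with 22.1% and 27.2% of those at or above it. Of the 41 members, 19 lay under that percentile, and 10 had a mean signal under 16. Among these 19 dim members ITGB1BP2 alone was called. Of the 22 members at or above it, 17 (77.3%) were higher, 3 (13.6%) lower, and the fibronectin receptor subunit ITGA5 and the kinase PTK2 did not pass. For the dim members a missing call means that no change was detectable at this signal.

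**Figure D2:**
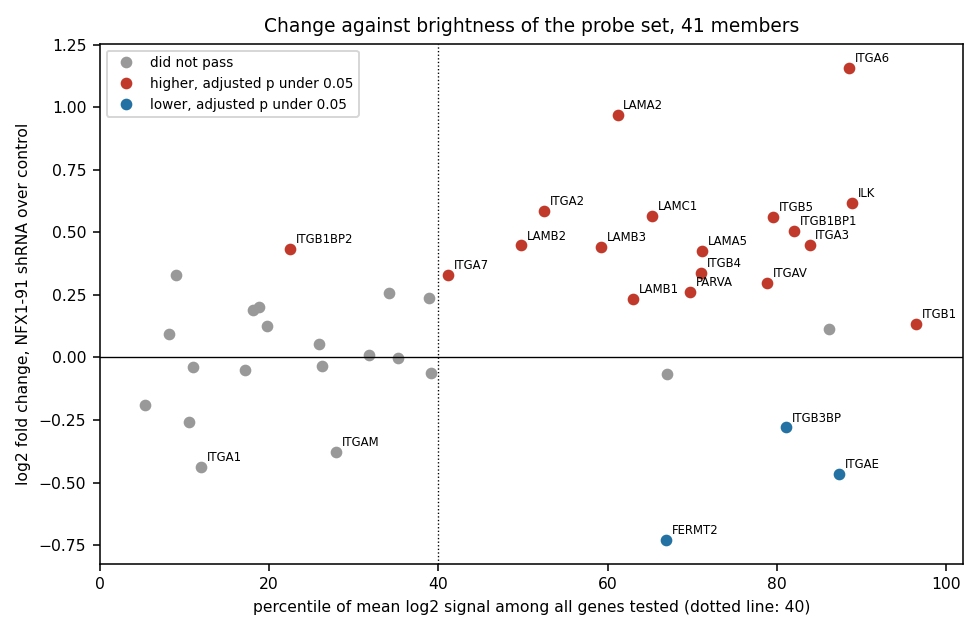
Log2 fold change of the 41 members (vertical, NFX1-91 shRNA over control) against the percentile of their mean log2 signal among all genes tested (horizontal), with a dotted line at percentile 40. All called members but ITGB1BP2 lie right of the line, and 18 of the 22 members there lie above 0.

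The regions upstream of the 4 members that changed at least 1.5-fold (ITGA6, LAMA2, ILK and FERMT2), and of LAMC1, whose probe sets differed in the size of the rise, are shown as the sequence context of these genes. Each is the 250 bases before a RefSeq transcript start on GRCh38.p14, written 5′ to 3′ on the strand of the gene. The windows lie at chr2:172427086-172427335 and chr2:172427336-172427585 for ITGA6 (2 annotated starts, + strand), chr11:6603524-6603773 for ILK (+), chr1:183023170-183023419 for LAMC1 (+), chr6:128882888-128883137 for LAMA2 (+) and chr14:52951051-52951300 for FERMT2 (- strand). Capitals mark the E-box CACGTG, a motif bound by MYC and USF factors, and the GC box GGGCGG or its reverse complement CCGCCC, a motif bound by SP1.
ITGA6 first start: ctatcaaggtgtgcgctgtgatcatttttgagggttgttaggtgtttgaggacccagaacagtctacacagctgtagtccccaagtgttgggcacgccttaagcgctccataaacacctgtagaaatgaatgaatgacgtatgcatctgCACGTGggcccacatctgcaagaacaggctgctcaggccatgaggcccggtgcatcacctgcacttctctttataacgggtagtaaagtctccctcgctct
ITGA6 second start: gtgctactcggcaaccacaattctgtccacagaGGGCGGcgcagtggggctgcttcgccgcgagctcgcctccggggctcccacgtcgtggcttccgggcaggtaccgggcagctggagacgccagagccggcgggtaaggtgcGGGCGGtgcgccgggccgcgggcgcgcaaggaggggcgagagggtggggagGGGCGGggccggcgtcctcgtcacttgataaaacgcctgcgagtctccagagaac
ILK: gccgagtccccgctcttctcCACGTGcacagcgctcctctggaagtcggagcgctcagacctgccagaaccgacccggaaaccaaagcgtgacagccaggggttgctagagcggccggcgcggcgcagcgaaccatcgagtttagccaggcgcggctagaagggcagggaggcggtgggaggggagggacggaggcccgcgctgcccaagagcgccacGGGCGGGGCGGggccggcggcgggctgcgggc
LAMC1: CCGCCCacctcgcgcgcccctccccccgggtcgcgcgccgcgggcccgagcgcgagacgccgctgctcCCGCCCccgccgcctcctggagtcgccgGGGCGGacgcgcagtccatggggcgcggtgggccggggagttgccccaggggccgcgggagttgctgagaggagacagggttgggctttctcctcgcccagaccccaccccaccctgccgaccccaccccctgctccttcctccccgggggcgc
LAMA2: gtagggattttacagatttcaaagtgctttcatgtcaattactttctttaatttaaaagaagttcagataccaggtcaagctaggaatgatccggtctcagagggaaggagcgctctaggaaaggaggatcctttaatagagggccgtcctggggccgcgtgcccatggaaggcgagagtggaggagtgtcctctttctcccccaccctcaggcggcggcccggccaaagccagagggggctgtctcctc
FERMT2: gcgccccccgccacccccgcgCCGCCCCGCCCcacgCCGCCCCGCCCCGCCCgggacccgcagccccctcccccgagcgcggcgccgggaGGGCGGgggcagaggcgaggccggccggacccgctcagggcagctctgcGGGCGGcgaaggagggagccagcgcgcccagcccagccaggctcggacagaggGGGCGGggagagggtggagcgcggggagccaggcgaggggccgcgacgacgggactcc

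The windows differ widely in base composition. G and C make up 84.4% of the FERMT2 window and 79.6% of that of LAMC1, compared with 53.2% for LAMA2 and 50.8% for the first start of ITGA6. FERMT2 holds 8 GC boxes, some of them overlapping, LAMC1 3, the second start of ITGA6 3 and ILK 2 that overlap. An E-box stands in the ILK window, starting 230 bases before the transcript start, and in that of the first start of ITGA6, 101 bases before it. Of 35116 such windows over all annotated starts 6.34% hold an E-box and 42.6% a GC box. Among 41 windows matched for 29 of the 41 members, 2 and 22 do. A match describes the letters and is not evidence of binding.

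Laminin chains, the ligands, were higher in 6 of 10 cases (60%, against 14.7% of all genes), and 4 did not pass. Their median log2 fold change was 0.38. LAMA2, the α chain of muscle and nerve basement membranes, had signals of 339, 372 and 411 in NFX1-91 shRNA arrays, against 202, 175 and 173 in control arrays. Its groups lay far apart, with a mean of 374 ± 36.1 in NFX1-91 shRNA arrays and 183 ± 16.6 in control arrays (SD, n = 3 arrays each; log2 fold change 0.97, SE 0.0935, adjusted p = 4.09e-05). LAMC1, the γ chain shared by most laminins, read 384, 421 and 386 in NFX1-91 shRNA arrays, against 279, 256 and 254 in control arrays (log2 fold change 0.56, SE 0.0717, adjusted p = 0.000224). Every array with the NFX1-91 hairpin was above every control array for both chains. LAMA5, the main α chain of adult epithelial basement membranes, had signals of 483, 523 and 527 in NFX1-91 shRNA arrays, against 438, 358 and 339 in control arrays (log2 fold change 0.43, SE 0.0922, adjusted p = 0.00554). Here the first control array was the highest of its group and still lay below all NFX1-91 shRNA arrays.

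Of the 4 β chains LAMB2, LAMB3 and LAMB1 were higher. LAMB2, known from synapses and the kidney filter, read 161, 150.0 and 174 in NFX1-91 shRNA arrays, against 125, 114 and 104 in control arrays (log2 fold change 0.45, SE 0.102, adjusted p = 0.00721). LAMB3, the β chain of the laminin to which hemidesmosomes attach, read 273, 285 and 277 in NFX1-91 shRNA arrays, against 219, 209 and 176 in control arrays (log2 fold change 0.44, SE 0.0899, adjusted p = 0.00394). LAMB1, the widespread β chain of embryonic and adult tissues, had signals of 299.6, 309 and 333 in NFX1-91 shRNA arrays, against 241, 275 and 278 in control arrays. The LAMB1 groups did not overlap but lay close, and the call sat at the threshold (log2 fold change 0.23, SE 0.0800, adjusted p = 0.0498). Without any one of the 6 arrays LAMB1 did not pass, at adjusted p-values of 0.059 to 0.138. The remaining chains were dim, with mean signals in NFX1-91 shRNA arrays of 45.7 for LAMC3, 16.8 for the vascular chain LAMA4, 10.98 for LAMB4 and 8.40 for the embryonic chain LAMA1. Their groups overlapped, and their log2 fold changes ran from -0.00200 (LAMC3) to 0.33 (LAMB4).

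**Figure D3:**
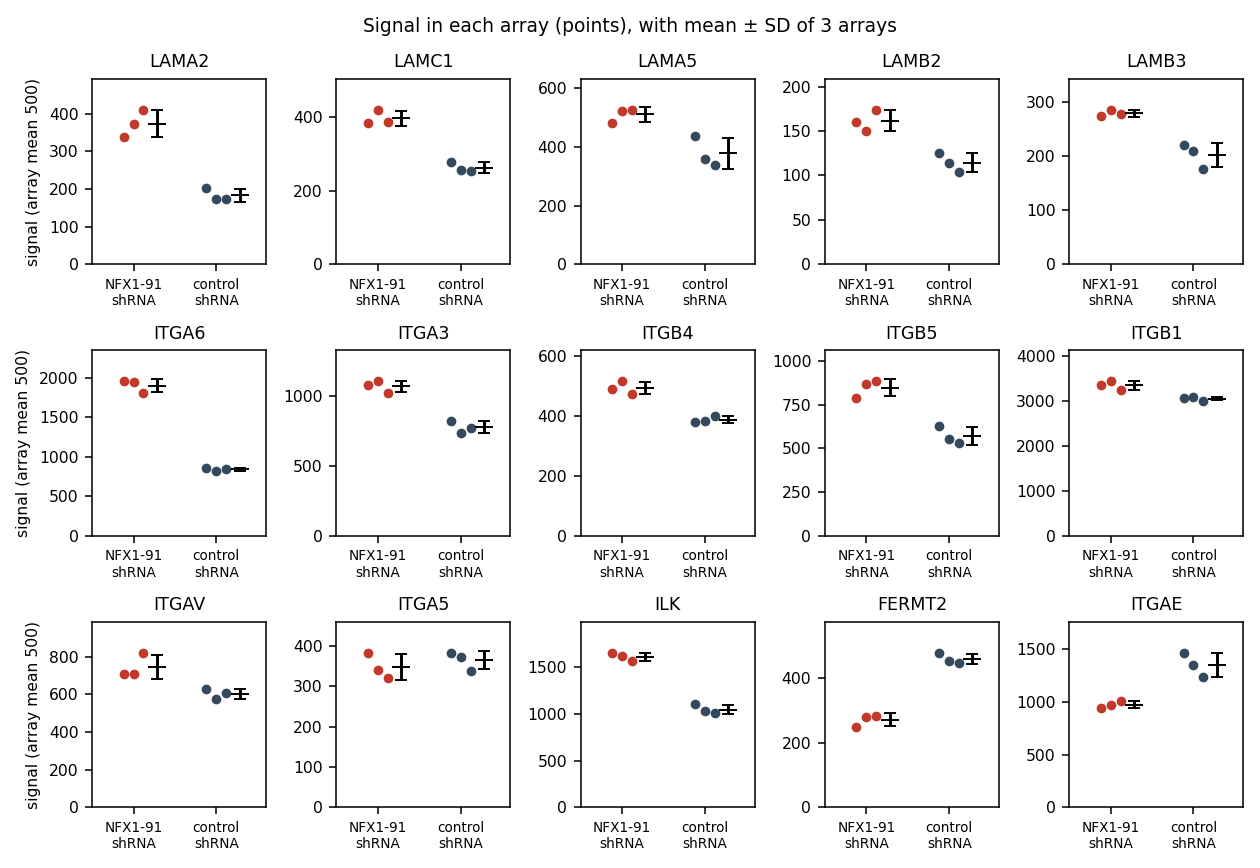
Signal of 15 members in each of the 6 arrays (points; linear axis from 0, array mean 500), NFX1-91 shRNA left and control shRNA right, with a bar for the mean ± SD of 3 arrays. The groups are apart for all but ITGA5, with ITGA6 at 1902 ± 83.1 in NFX1-91 shRNA arrays and 843 ± 17.5 in control arrays, and FERMT2 at 270.3 ± 20.2 in NFX1-91 shRNA arrays and 458 ± 16.6 in control arrays.

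The 3 α subunits classed here as laminin-binding were all higher, where 14.7% of all genes were. ITGA6, which pairs with ITGB1 or ITGB4, had signals of 1955, 1945 and 1806 in NFX1-91 shRNA arrays, against 858, 824 and 847 in control arrays. The mean was 1902 ± 83.1 in NFX1-91 shRNA arrays and 843 ± 17.5 in control arrays (SD, n = 3 arrays each; log2 fold change 1.16, SE 0.0471, adjusted p = 4.13e-07). ITGA3, the other main laminin receptor subunit of epithelia and a partner of ITGB1, read 1078, 1105 and 1024 in NFX1-91 shRNA arrays, against 823, 738 and 774 in control arrays (log2 fold change 0.45, SE 0.0559, adjusted p = 0.000191). ITGA7, best known from muscle, had the weak signals 91.8, 83.97 and 76.5 in NFX1-91 shRNA arrays, against 66.1, 63.2 and 60.9 in control arrays (log2 fold change 0.33, SE 0.111, adjusted p = 0.0447). Its groups were apart, yet the call was lost without any one of 5 of the 6 arrays, all but NFX1-91 shRNA replicate 3, with adjusted p-values up to 0.133.

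The β subunits that these receptors use were higher as well. ITGB4, the long-tailed partner of ITGA6 in hemidesmosomes, read 491, 516 and 474 in NFX1-91 shRNA arrays, against 379, 383 and 400.1 in control arrays (log2 fold change 0.34, SE 0.0608, adjusted p = 0.00194). ITGB1, the common partner of many α subunits, read 3356, 3432 and 3245 in NFX1-91 shRNA arrays, against 3071, 3076 and 3000.2 in control arrays, a small step with groups that did not overlap (log2 fold change 0.13, SE 0.0352, adjusted p = 0.0159). This small ITGB1 step did not pass without NFX1-91 shRNA replicate 2 (adjusted p = 0.0841) or control replicate 3 (0.0555). With shared probe sets left out ITGB1 was read by a dim one, at -0.14 (adjusted p = 0.487). ITGB5, a partner of ITGAV and receptor for vitronectin, was higher too, with 791, 868 and 884 in NFX1-91 shRNA arrays, against 626, 555 and 529 in control arrays (log2 fold change 0.56, SE 0.0727, adjusted p = 0.000254). Of the other β subunits outside leukocytes, ITGB3 had 70.4, 60.3 and 73.2 in NFX1-91 shRNA arrays, against 39.7, 66.6 and 61.9 in control arrays. The ITGB3 log2 fold change of 0.24 did not pass (adjusted p = 0.318). ITGB8, a partner of ITGAV in the activation of TGF-β, was dim at 23.1 ± 4.47 in NFX1-91 shRNA arrays and 23.99 ± 4.13 in control arrays (adjusted p = 0.904).

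Receptors for collagen and for the RGD peptide of fibronectin and vitronectin were mixed. Among the collagen-binding subunits ITGA2 read 245, 207 and 161 in NFX1-91 shRNA arrays, against 113, 114 and 166 in control arrays (log2 fold change 0.58, SE 0.168, adjusted p = 0.023). The ITGA2 groups overlapped, since the third control array lay above the third NFX1-91 shRNA array, and the call was lost without NFX1-91 shRNA replicate 1 or 2 or control replicate 1 or 2 (adjusted p up to 0.0969). ITGA10 did not differ beyond its spread (35.8 ± 6.72 in NFX1-91 shRNA arrays and 35.99 ± 12.03 in control arrays, adjusted p = 0.977). ITGA1 was at the dim end, with 16.5, 1.70 and 1.66 in NFX1-91 shRNA arrays, against 13.05, 14.6 and 12.3 in control arrays, and its first NFX1-91 shRNA array stood apart from the other two. With all arrays ITGA1 did not pass (log2 fold change -0.44, SE 0.224, adjusted p = 0.179), and without NFX1-91 shRNA replicate 1 it was lower (log2 fold change -0.73, adjusted p = 0.00494).

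Of the 4 RGD-binding α subunits ITGAV, the partner of several β subunits, was higher, with signals of 706, 709.7 and 819 in NFX1-91 shRNA arrays, against 626, 573 and 606 in control arrays (log2 fold change 0.30, SE 0.0690, adjusted p = 0.0078). ITGA5, the classical fibronectin receptor, was bright enough to be measured at 383, 339.7 and 322 in NFX1-91 shRNA arrays, against 382, 372 and 339 in control arrays. Its groups overlapped, and its log2 fold change of -0.07 (SE 0.0815, adjusted p = 0.608) lay within the spread between arrays. The platelet subunit ITGA2B (0.26, adjusted p = 0.284) and the kidney and smooth muscle subunit ITGA8 (-0.26, adjusted p = 0.372) did not pass. Neither did ITGA4 (0.20, adjusted p = 0.393) and ITGA9 (0.05, adjusted p = 0.806), whose mean signals in NFX1-91 shRNA arrays were 17.04 and 23.6.

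One subunit of the leukocyte group was bright in these epithelial cells. ITGAE, which pairs with ITGB7 and binds E-cadherin, was lower, with signals of 941, 967 and 1007 in NFX1-91 shRNA arrays, against 1464, 1351 and 1239 in control arrays (log2 fold change -0.47, SE 0.0626, adjusted p = 0.000316). All NFX1-91 shRNA arrays lay below all control arrays. E-cadherin itself, CDH1, had 443, 444 and 468 in NFX1-91 shRNA arrays, against 620.0, 669.8 and 651 in control arrays (log2 fold change -0.50, SE 0.0571, adjusted p = 0.00011). ITGB7 was hardly above the bottom of the scale, at 4.04 ± 2.22 in NFX1-91 shRNA arrays and 6.85 ± 2.16 in control arrays (adjusted p = 0.37). ITGAL (0.13), ITGAX (-0.04) and their partner ITGB2 (-0.05) were dim too and did not pass. ITGAM read 32.2, 16.5 and 16.7 in NFX1-91 shRNA arrays, against 25.2, 34.1 and 38.2 in control arrays (log2 fold change -0.38, adjusted p = 0.162). As for ITGA1, its first NFX1-91 shRNA array stood apart, and without it ITGAM was lower (log2 fold change -0.57, adjusted p = 0.0343).

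Markers were read to check the cell type behind these signals. Of 12 epithelial markers 9 lay above the median brightness of all genes, while VIL1 had a mean signal under 16. The summed signal of the 12 was 29980.0 to 30199 in NFX1-91 shRNA arrays and 26208 to 26932 in control arrays. Keratins made up much of it, KRT18 with means of 10739 in NFX1-91 shRNA arrays and 7403 in control arrays. By limma 2 of the 12 were higher (16.7%) and 4 lower (33.3%), where 14.7% and 17.8% of all genes were. Of 7 measured blood cell markers 0 lay above that median, the pan-leukocyte PTPRC and CD14, SPI1 and LYZ had mean signals under 16, and the sums were 181 to 211 in NFX1-91 shRNA arrays and 152 to 175 in control arrays. For fibroblast markers it was 2 of 10 (sums of 564 to 676 in NFX1-91 shRNA arrays and 509 to 590.3 in control arrays), with PDGFRA, PDGFRB, LUM and FAP under 16. For endothelial markers it was 1 of 8 (sums of 312 to 330.3 in NFX1-91 shRNA arrays and 334 to 387 in control arrays), with CDH5 and VWF under 16. Among the epithelial markers CLDN7 (-1.11), CDH1, EPCAM (-0.15) and ELF3 (-0.21) were lower and the keratins KRT18 (0.54) and KRT8 (0.35) higher. The endothelial markers EGFL7 (-0.44) and KDR (-0.54) were lower, and by limma 0 blood cell or fibroblast markers passed (0 and 1 at an unadjusted p under 0.05).

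Inside the cell the adhesion proteins went both ways. ILK, a pseudokinase that joins β subunit tails to actin, read 1652, 1615 and 1566 in NFX1-91 shRNA arrays, against 1101, 1031 and 1006 in control arrays (log2 fold change 0.62, SE 0.0482, adjusted p = 1.24e-05). PARVA, its actin-binding partner, read 422, 480.3 and 445 in NFX1-91 shRNA arrays, against 363, 374 and 379 in control arrays (log2 fold change 0.26, SE 0.0663, adjusted p = 0.0129), a smaller step that did not pass without NFX1-91 shRNA replicate 2 (adjusted p = 0.0773). For both proteins every NFX1-91 shRNA array lay above every control array. FERMT2, kindlin-2, which binds β tails and helps to activate integrins, was lower, at 247, 281 and 283 in NFX1-91 shRNA arrays, against 477, 451 and 446 in control arrays (log2 fold change -0.73, SE 0.0731, adjusted p = 5.13e-05). PTK2, focal adhesion kinase, had 1033, 1132 and 1114 in NFX1-91 shRNA arrays, against 1011, 984 and 1032 in control arrays. The PTK2 groups did not overlap, but the log2 fold change of 0.11 did not pass (SE 0.0503, adjusted p = 0.122). Without NFX1-91 shRNA replicate 1 PTK2 was higher (log2 fold change 0.15, adjusted p = 0.0457). TNS1, a tensin of focal adhesions, was dim and did not pass (-0.06, adjusted p = 0.771).

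The 3 binding proteins caught by their symbols all passed. ITGB1BP1, which binds the ITGB1 tail and restrains its activation, read 894, 979.7 and 1029 in NFX1-91 shRNA arrays, against 713, 695 and 625 in control arrays (log2 fold change 0.50, SE 0.0690, adjusted p = 0.000361). ITGB1BP2, a muscle chaperone, was near the bottom of the scale at 21.9, 28.9 and 21.8 in NFX1-91 shRNA arrays, against 14.5, 11.5 and 15.1 in control arrays (log2 fold change 0.43, SE 0.135, adjusted p = 0.0329). Its call was lost without any one of 5 arrays, all but NFX1-91 shRNA replicate 3 (adjusted p up to 0.115). ITGB3BP, a centromere protein first found through its binding to ITGB3, read 616, 670.5 and 771 in NFX1-91 shRNA arrays, against 855, 827 and 815 in control arrays (log2 fold change -0.28, SE 0.0762, adjusted p = 0.018). This fall did not pass without NFX1-91 shRNA replicate 1 or 2 or control replicate 2 (adjusted p up to 0.0797). Without these 3 genes, 16 of 38 members were higher (42.1%) and 2 lower (5.26%), where 14.7% and 17.8% of all genes were.

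Several genes could be read more than once. The members had 86 single-gene probe sets, and 20 members had several, so each of the 45 others gave a further reading, although 22 of these had a mean signal under 16. In a fit over all 19064 single-gene probe sets, 8 of the 45 were higher and 0 lower (8 and 1 at an unadjusted p under 0.05), with 12.6% and 14.6% of all such probe sets called higher and lower. Of the 11 called members with several probe sets, 6 were backed by another probe set that passed in the same direction, and no other probe set of these 11 passed in the opposite one. The 6 were LAMA2, LAMB1, LAMC1, ITGA6, ITGB5 and ITGB1BP1. For LAMB1 it was the other probe set that passed there (0.44, adjusted p = 0.0263), while the brightest missed the threshold (adjusted p = 0.0658), as did that of ITGA7 (0.0566).

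**Figure D4:**
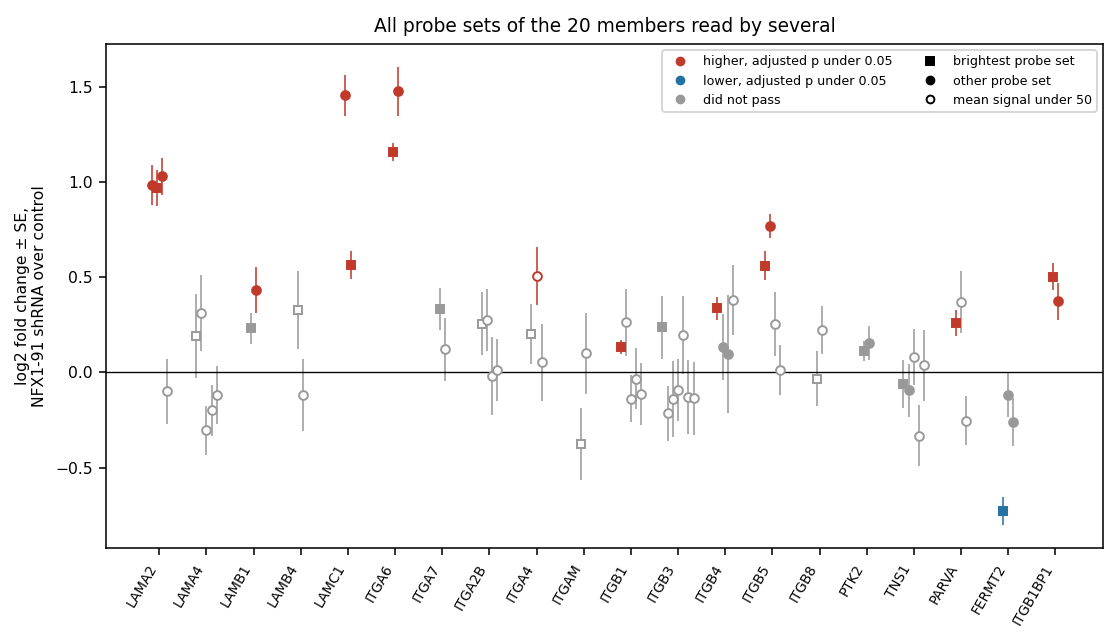
Log2 fold change ± 1 SE of every single-gene probe set of the 20 members with several, NFX1-91 shRNA over control, from a limma fit over all 19064 single-gene probe sets. Squares mark the brightest probe set of a gene by mean log2 signal, open symbols a mean signal under 50, and colours the call. Both LAMC1 and both ITGA6 probe sets are red, and of the 3 FERMT2 probe sets 1 is blue.

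Agreement between probe sets was close for some genes and poor for others. The 3 bright LAMA2 probe sets gave log2 fold changes of 0.97, 0.99 and 1.03. ITGA6 gave 1.16 on its brightest and 1.48 on its other probe set, whose signals were 710.1, 755 and 675 in NFX1-91 shRNA arrays, against 194, 262 and 291 in control arrays. LAMC1 rose on both, but by 0.56 on one and 1.46 on the other, which read 453, 526 and 517 in NFX1-91 shRNA arrays, against 196, 172 and 148 in control arrays. With the brightest probe set chosen by linear means, LAMC1 is read by the one with the larger change. ITGB5 had 0.56 and 0.77 on its bright probe sets and 0.26 (adjusted p = 0.324) on a dim one. The bright ITGB5 probe sets are of the shared kind (_s_at or _x_at), which can match more than 1 transcript, whereas that dim one is not, and a further dim probe set of the shared kind gave 0.01 (adjusted p = 0.964).

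Other calls rested on 1 probe set. The other FERMT2 probe sets read 168, 177 and 182 in NFX1-91 shRNA arrays, against 161, 222 and 197 in control arrays (-0.12, adjusted p = 0.529) and 81.4, 92.5 and 75.8 in NFX1-91 shRNA arrays, against 88.7, 104 and 117 in control arrays (-0.26, adjusted p = 0.174). Both were on the same side of 0 as the brightest and neither passed. The mean of the 3 FERMT2 probe sets was lower too (log2 fold change -0.37, adjusted p = 0.00728), a smaller step than on the brightest alone. For ITGB4 the other probe sets of clear signal gave 0.13 and 0.10 and did not pass (adjusted p = 0.646 and 0.873). The other ITGB1 probe sets lay between -0.14 and 0.26, all of them dim. For PARVA the others were dim too and lay on opposite sides of 0, at 0.37 (adjusted p = 0.138) and -0.25 (adjusted p = 0.193). The other ITGA7 probe set gave 0.12 and did not pass (adjusted p = 0.665). ITGA4, not called by its brightest probe set, was higher on a dim one (0.50, adjusted p = 0.0375), which read 12.8, 3.98 and 10.3 in NFX1-91 shRNA arrays, against 1.25, 1.98 and 1.09 in control arrays. These ITGA4 signals stayed under 16 in all arrays.

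A wider list of 34 measured integrin partners and adhesion adaptors had 11 higher (32.4%) and 7 lower (20.6%) and a median log2 fold change of 0.06. Over all genes 14.7% were higher and 17.8% lower, so the share of lower adaptors was near that of all genes. FERMT1, the kindlin of epithelia, was higher by 0.66 (adjusted p = 7.22e-05), at 579.8, 595 and 570.3 in NFX1-91 shRNA arrays, against 399.6, 345 and 345 in control arrays, where its relative FERMT2 was lower. RSU1, which binds the complex of ILK and PARVA, read 0.57 (adjusted p = 4.92e-05), and 0.17 (adjusted p = 0.433) on a probe set that is not of the shared kind. The actin linkers VCL (0.40) and ACTN4 (0.46) were higher. TLN1, talin, which switches integrins on through their β tails, was lower, at 109.6, 129.6 and 188 in NFX1-91 shRNA arrays, against 309, 270.5 and 286 in control arrays (log2 fold change -0.97, SE 0.156, adjusted p = 0.000965). SLC3A2, a heavy chain of amino acid transporters that also binds β tails, was lower (log2 fold change -0.94, adjusted p = 1.76e-06). The count of higher adaptors was 6 without NFX1-91 shRNA replicate 2 and 7 without control replicate 2. That of lower adaptors was 4 without control replicate 2. Counts over all genes fell in the same fits, to 1264 and 1341 higher in place of 1760, and to 1736 lower in place of 2130.

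Of 27 measured genes on a list of basement membrane proteins and other integrin ligands besides laminins, 7 (25.9%) were higher and 3 (11.1%) lower, where 14.7% and 17.8% of all genes were, with a median log2 fold change of 0.04. The list also holds intracellular linkers of hemidesmosomes, which are neither matrix nor ligands: DST, one of the 7, at 0.40 (adjusted p = 0.000653), and PLEC, which did not pass (0.01). TGFB1, held latent by a peptide that ITGAV receptors bind, was at 0.55 (adjusted p = 0.000234). The matrix proteins THBS1 (0.97), FN1 (0.51) and FBLN1 (-0.41) passed on their brightest probe sets. With shared probe sets left out THBS1 read -0.26, FN1 -0.40 and TGFB1 0.18, and none of these passed (adjusted p = 0.184, 0.0941 and 0.319). FBLN1 read 0.11 by the mean of its probe sets (adjusted p = 0.451).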

How the data were processed

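Biotin-labelled cRNA from total RNA was hybridised to Affymetrix arrays, per the labels' protocols. The authors deposited 1 table of linear intensity values for 22215 probe sets in which each array sums to 1, and no source used here gives the summarisation or scaling of probes. Each array repeats 1 low value 397 to 451 times, and 0 of the 41 brightest probe sets of the members hold it.

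Values were multiplied to an array mean of 500, and log2(signal + 16) was taken, with no further normalization or filter. Gene names came from the platform's annotation table: 19064 had 1 gene, 1043 several and 2108 none listed. All 41 member identifiers matched RefSeq (GRCh38.p14) with unchanged symbols. The test was limma 3.58.1 under R 4.3.3 (variance trend, unpaired, two-sided, 11963 genes). Only this fit was tried on simulated data, which did not test the probe set choice, the offset or array effects. An exact permutation test cannot go below 0.1 with 3 against 3 arrays. Arrays correlated at 0.992 to 0.995 within groups and 0.983 to 0.985 between them. Promoter windows were searched on both strands and figures drawn with Python 3.11.15 and matplotlib 3.10.9.

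The members and lists were chosen with earlier results of these data known, so counts are given beside those of all genes and with no list test. Every member could be named, and of each other list up to 6 called genes with the smallest adjusted p. The 2 probe sets shared between LINC02478 and ITGB6 were not analysed here.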

Additional observations from a re-analysis of the deposited data

How the results depend on the processing

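The direction held for every called member under 18 or 17 alternatives each, with 1 exception, and 12 of 21 kept their call in all of them: LAMA2, LAMA5, LAMB2, LAMB3, LAMC1, ITGA3, ITGA6, ITGAV, ITGAE, ILK, FERMT2 and ITGB1BP1. Of these, LAMA5, LAMB2, LAMB3, ITGA3, ITGAV, ITGAE and ILK are among the 10 called members with a single probe set. Alternatives that change the choice of probe set could not move their log2 fold changes. The exception was ITGB1, at -0.14 (adjusted p = 0.487) with shared (_s_at and _x_at) probe sets left out, which puts a dim probe set in place of its only bright one. That setting also ended the calls of ITGB4 (adjusted p = 0.16), ITGB5 (0.3) and PARVA (0.12), and gave THBS1 -0.26 and FN1 -0.40. Averaging all probe sets per gene gave FBLN1 0.11, and ended the calls of ITGA7, ITGB1, ITGB4 and PARVA (adjusted p = 0.163, 0.921, 0.325 and 0.387). Without a variance trend LAMB1, ITGA2, ITGB1 and ITGB3BP did not pass (adjusted p = 0.0741, 0.0644, 0.135 and 0.0662). LAMB1 also missed the threshold at an offset of 64 (0.0524) and with shared probe sets left out (0.0513), and ITGA7 at an offset of 1 (0.0514), while PTK2 passed with quantile normalization (0.0407) and array weights (0.0146). LAMC1 read 1.46 with the brightest probe set chosen by linear means, an alternative chosen after seeing the data. Uncalled members changed sign in 32 of 342 values, and no value was called opposite to its reported direction.

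Members called higher ran from 13 to 19, and lower from 2 to 5, over 12 settings of normalization, offset, variance model, filter and probe sets, the 5 with array weights, which added ITGA1 and ITGAM. Over the same settings 1471 to 2419 of all genes were higher and 1874 to 2670 lower. Leaving out single arrays gave 12 to 17 higher and 2 to 4 lower members, 6 to 10 higher and 4 to 7 lower adaptors, and 4 to 6 higher ligands. Of all genes 1264 to 1846 were then higher and 1649 to 2081 lower. At 1.5-fold 3 members were higher and 1 lower, 1 adaptor higher and 3 lower, 1 ligand higher and 0 lower, and over all genes 1054 changed, 364 higher and 690 lower. With the threshold at 0.01, 12 members, 6 adaptors and 4 ligands were higher and 2 members, 4 adaptors and 2 ligands lower. Of all genes 1136 were then higher and 1539 lower. Higher ligands were 4 by the mean of probe sets and 3 with shared probe sets left out, where 1611 and 1615 of all genes were higher. Same-numbered arrays did not visibly deviate together (correlations of -0.03, 0.08 and -0.02). With 3 arrays a group these values cannot settle whether same-numbered arrays were handled together, and the labels do not say. With the replicate block 3598 genes were called in place of 3890, and LAMB1 (adjusted p = 0.0581), ITGA7 (0.0637) and ITGB1BP2 (0.0635) did not pass. Signals near the offset limit what the 19 dim members can show.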
